A study of Mus musculus with 23 samples.

Results

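The transcripts of 10 genes that bring fatty acids into fat tissue and its cells were followed in mammary fat that bordered a tumor. The genes were chosen by name for their role (Cd36, Lpl, Gpihbp1, Fabp4, Fabp5, Slc27a1, Slc27a4, Acsl1, Lmf1 and Angptl4), with no measured value in the rule. Earlier results of these data were known when they were chosen. All 10 of the 10 listed genes were found among the 47311 genes summed, and all 10 passed the filter on low counts that left 19882. The tissue came from 23 libraries of female C57BL/6J mice. Mouse mammary carcinoma cells of the line E0771 carrying luciferase (250000 per animal) had been placed in mammary gland 4 of every mouse. Lean mice had food with 10% of its energy as fat, and obese mice had food with 60% as fat. The protocol text, the same in every sample, describes only the high-fat food, eaten between 8 and 26 weeks of age, so the label of each sample was used for its group. Mice received anti-PD-1, an antibody against an inhibitory receptor of T cells, at 200 µg in 50 µl, or an IgG2a isotype control antibody. They were injected at 3-day intervals up to day 21. The lean mice gave 5 libraries for IgG2a and 5 for anti-PD-1, and the obese mice gave 5 for IgG2a and 8 for anti-PD-1. Numbers within a group follow the order of deposition. Titles differ between libraries, but the labels do not state that each is another mouse, so p-values measure the spread between these libraries.

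Fat cells take up fatty acids that arrive in blood as triglyceride. Lipoprotein lipase, the product of Lpl, is folded with the help of lipase maturation factor 1 (Lmf1), is carried to the capillary wall by the endothelial protein GPIHBP1, and is inhibited by ANGPTL4. The released fatty acids cross membranes with the help of CD36 and of the transport proteins encoded by Slc27a1 and Slc27a4. Inside the cell they bind FABP4 and FABP5 and are activated to acyl-CoA by ACSL1.

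Libraries of the same group differed in other ways, some of them spread unevenly between the groups, and these differences bear on the values below. Each held between 49438121 and 77369057 estimated counts. A list of 10 B cell genes, scored as mean log2 CPM (counts relative to library size, after TMM scaling between libraries), split the libraries into 11 with a score of 5.16 or more and 12 with -0.57 or less. Among IgG2a libraries the score was high in 4 of 5 lean and 2 of 5 obese ones, and among anti-PD-1 libraries in 3 of 5 lean and 2 of 8 obese ones. Liver genes summed to 9080 CPM in obese IgG2a 5 and to at most 230 CPM in any other library. The 4 genes Hmga2, Mki67, Fosl1 and Mmp13, listed as tumor-like, summed to 269 and 411 CPM in obese IgG2a 2 and 5. In any other library they summed to at most 127 CPM. Adipoq, a defining gene of fat cells, was present in every library at 306 to 3376 CPM, and the endothelial gene Pecam1 at 108 to 339 CPM. A length index was added after the data were seen. It is the median log2 deviation of genes longer than 4000 bases minus that of genes shorter than 1200 bases. It exceeded 0.5 in 5 libraries, all of them obese (IgG2a 4 and 5, anti-PD-1 2, 5 and 6), so what moves with this index cannot be told apart from obesity in those libraries. In bulk tissue, fewer cells of a type and less RNA per cell cannot be told apart.

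The 10 genes covered a wide range of abundance. On the TPM scale (which divides by transcript length), the median level over the 23 libraries was 13790 for Fabp4, 1809 for Lpl, 835 for Cd36, 414 for Acsl1 and 300.0 for Slc27a1. It was 259 for Fabp5, 209 for Angptl4, 153 for Gpihbp1, 21.3 for Lmf1 and 13.2 for Slc27a4. Neighbours in this order overlapped: Lpl reached 11700 TPM in its highest library, and Fabp4 had 4308 TPM in its lowest. The spread between libraries was widest for Lpl, whose highest TPM was 45.6 times its lowest. It was narrowest for Lmf1, at 2.36 times.

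**Figure D1:**
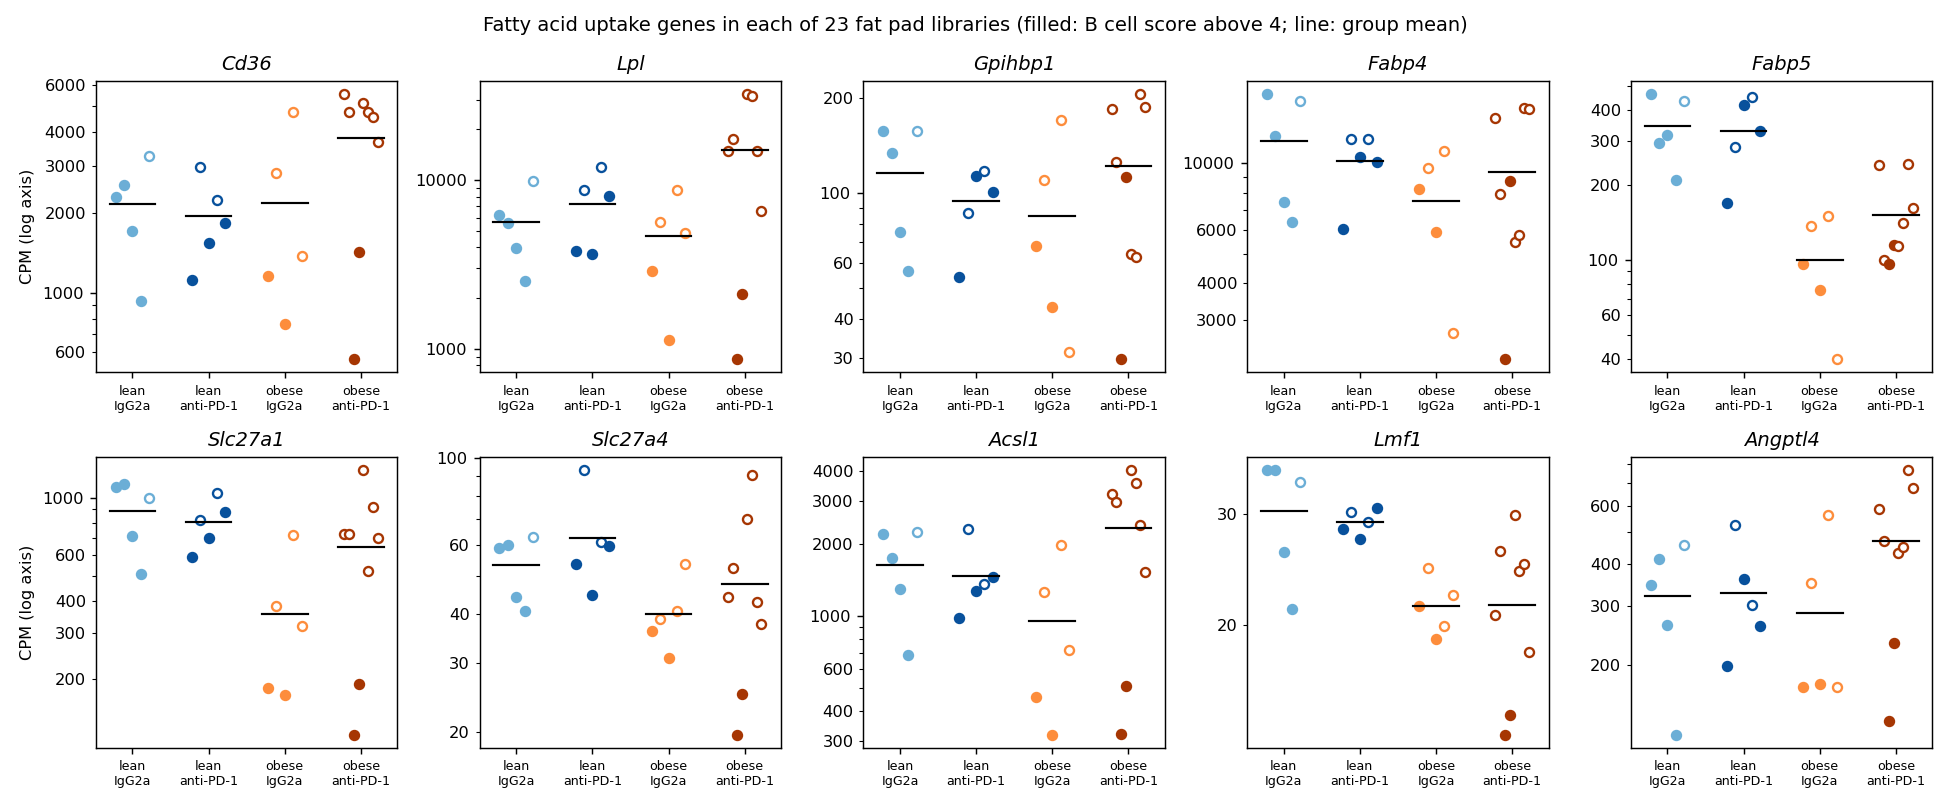
Level of each gene in every library, in CPM on a log axis, by diet and antibody group. Points are libraries, filled where the B cell score is above 4, and lines are group means. Fabp5 in the 5 obese IgG2a libraries (40.1 to 150 CPM) lies below all 5 lean IgG2a libraries (210 to 464 CPM).

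The first question was how these genes differ between obese and lean fat pads. Fabp5 was the single gene of the 10 that fell, and it fell under both antibodies. The other 9 did not pass the test in either comparison, and the 95% intervals of Cd36 and Lpl under IgG2a held changes of more than 2-fold either way. In IgG2a-treated mice 1 of the 10 fell and none rose, where 5.79% of all genes tested were called and 3.12% were called lower. Of the 10, 9 had a negative log2 fold change, with a median of -0.48 against 0.12 for all genes. In anti-PD-1-treated mice again 1 fell and none rose, where 10.1% of all genes were called and 4.85% were called lower. There 5 were higher and 5 lower, with a median of 0.12 against 0.08. Under IgG2a, 9 of 12 listed fat cell genes (median -0.57) and 10 of 12 endothelial genes (median -0.30) were lower too. Under anti-PD-1, 7 and 9 of them were higher (medians 0.31 and 0.24). Their part in the result was not tested. A gene was called at an adjusted p under 0.05 in edgeR's quasi-likelihood test, with Benjamini-Hochberg adjustment over all genes tested.

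**Figure D2:**
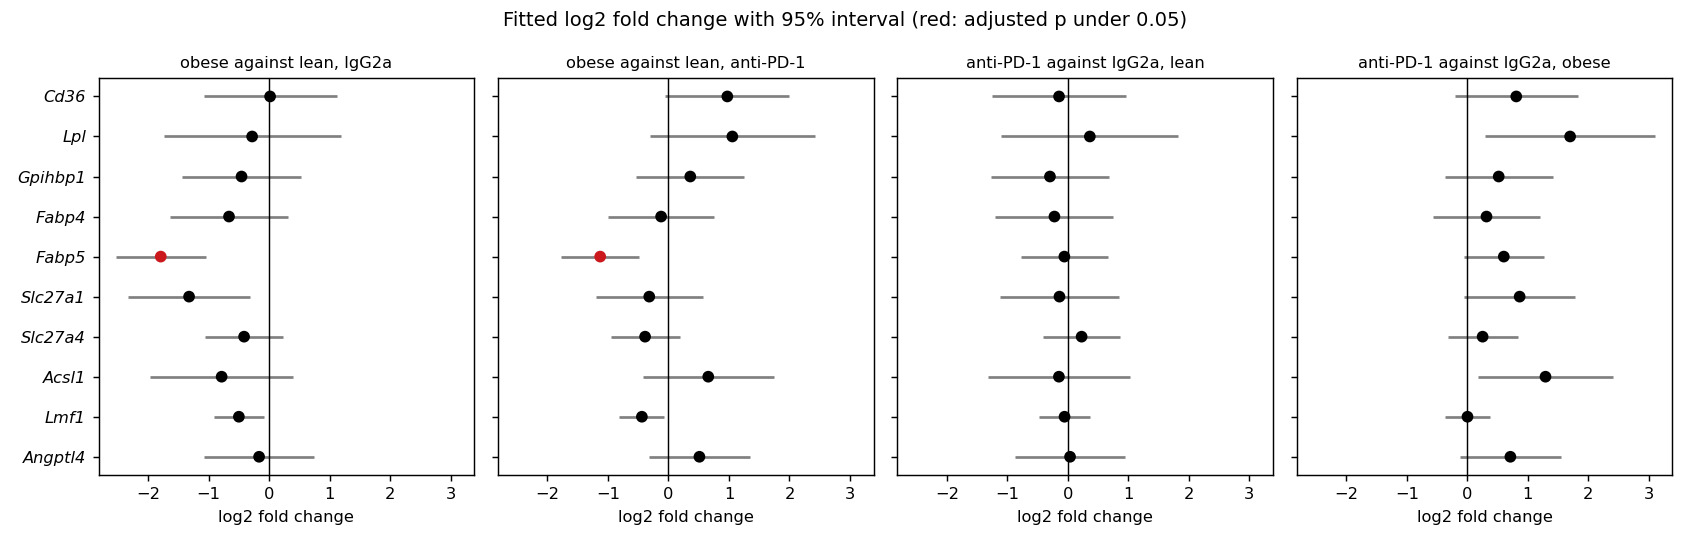
Fitted log2 fold change of each gene with its 95% interval in 4 comparisons, with red points for an adjusted p under 0.05. Fabp5 is red in both comparisons of obese with lean mice (-1.79 and -1.13), and no gene is red for anti-PD-1 against IgG2a.

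Fabp5 (ENSMUSG00000027533, chr3:10012548-10016607, plus strand, GRCm38) encodes the fatty acid binding protein of epidermis, also made by fat cells and macrophages. In lean IgG2a mice it was at 464, 297, 319, 210 and 434 CPM. In obese IgG2a mice it was at 96.5, 137, 75.7, 150 and 40.1 CPM. No library of one group reached the range of the other, a separation in this direction that 4.42% of all genes showed. The fitted level was 3.45-fold lower in obese mice (log2 fold change -1.79, SE 0.36, adjusted p = 0.00467 in edgeR's test). Under anti-PD-1, the lean libraries had 169, 285, 420, 453 and 329 CPM. The 8 obese ones ranged from 96.5 to 243 CPM with a median of 128, and the groups overlapped through the lowest lean library. The fitted level was 2.19-fold lower (log2 fold change -1.13, SE 0.31, adjusted p = 0.0232 in edgeR's test).

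The fall of Fabp5 under IgG2a was past the threshold in every alternative fit but the one restricted to the 12 libraries with a low B cell score (-2.05, edgeR adjusted p = 0.113). The fall under anti-PD-1 was less firm. It missed the threshold on log2(TPM + 1) in limma (-0.67, adjusted p = 0.137), with the length index as a covariate (-0.94, edgeR adjusted p = 0.141) and without the 5 libraries of high index (-0.94, edgeR adjusted p = 0.0839). It also missed it without lean anti-PD-1 3 (-1.04, edgeR adjusted p = 0.057) or 4 (-0.96, edgeR adjusted p = 0.0868). Among libraries of high B cell score alone the value was -1.49 (edgeR adjusted p = 0.0723), and among the others -1.23 (edgeR adjusted p = 0.0812). The difference between the falls under the 2 antibodies was 0.66 (SE 0.47, edgeR adjusted p = 0.788). Mammary epithelium genes, another possible source of Fabp5, moved with diet: 12 of 12 were lower in obese mice under each antibody, of which 3 fell under IgG2a and 11 under anti-PD-1. Of all genes tested, 3.12% and 4.85% were called lower. The 12 genes summed to 1400 to 4990 CPM in lean and 380 to 1950 CPM in obese libraries. Genes of lipid-associated macrophages, a further possible source, moved up: 4 of 7 rose under IgG2a and 3 under anti-PD-1. In either direction, 5.79% and 10.1% of all genes were called. Epidermis genes were high in part of the lean libraries only. Their sums reached 43.2, 63.4 and 234 CPM in lean IgG2a 1, 2 and 5 and 98.7 CPM in lean anti-PD-1 4. Every other lean library had at most 8.34 CPM, while obese libraries spanned 3.71 to 19.3 CPM. Of the 6 epidermis genes tested, none passed under IgG2a, and 1 fell under anti-PD-1. All 6 were lower with obesity under IgG2a and 5 under anti-PD-1. The part of these cell types in the result was not tested. The annotated pseudogene copy Fabp5l2 held at most 0.274% of the counts of Fabp5 in any library.

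The lipase and its partners did not pass the test with obesity, and Lpl was the most variable of them. Lpl (chr8:68880491-68907448, plus strand) was at 6235, 5597, 3970, 2516 and 9878 CPM in lean IgG2a and 2885, 5629, 1136, 8739 and 4847 CPM in obese IgG2a mice. These groups overlapped widely (log2 fold change -0.28, 95% interval -1.74 to 1.18). In lean anti-PD-1 mice it was at 3831, 8755, 3650, 11980 and 8060 CPM. The obese anti-PD-1 libraries ranged from 874 to 32290 CPM with a median of 14880 (log2 fold change 1.06, SE 0.66, edgeR adjusted p = 0.356). The 2 libraries of this group with a high B cell score had the lowest levels, 874 and 2106 CPM. Libraries 5 and 6 had the highest, 32290 and 31430 CPM, and they also had the highest length indices, 1.26 and 1.15. With the length index as a covariate the log2 fold change was -0.14, and with the B cell score as a covariate -0.09. Among libraries of high B cell score alone it was -1.76 (edgeR adjusted p = 0.14). Its direction thus differed between settings, while leaving out any 1 library kept it between 0.8 and 1.34.

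Gpihbp1, Angptl4 and Lmf1 act on the lipase at different places. Gpihbp1 (chr15:75596628-75599481, plus strand) was at 158, 134, 75.1, 56.8 and 157 CPM in lean IgG2a and at 68.0, 110, 43.6, 170 and 31.5 CPM in obese IgG2a mice, with overlap. Its log2 fold changes with obesity were -0.45 (SE 0.47) under IgG2a and 0.36 (SE 0.43) under anti-PD-1. In obese anti-PD-1 libraries 5 and 6, where Lpl peaked, Gpihbp1 was at 64.0 and 62.7 CPM, below the group's median of 119. Angptl4 (chr17:33773750-33781830, minus strand) averaged 321 ± 133 CPM (SD, n = 5) in lean IgG2a and 287 ± 173 (SD, n = 5) in obese IgG2a mice. Under anti-PD-1 it averaged 329 ± 124 (SD, n = 5) in lean and 469 ± 213 CPM (SD, n = 8) in obese mice. Neither difference passed the test (log2 fold changes -0.16, SE 0.44, and 0.51, SE 0.40). With the fat cell score as a covariate both passed the threshold, at 0.62 under IgG2a, the opposite direction (edgeR adjusted p = 0.0498), and at 0.51 under anti-PD-1 (edgeR adjusted p = 0.037). That score is the mean log2 CPM of 12 fat cell genes, which moved with obesity themselves. Of the 12, 4 fell under IgG2a, and 4 fell and 1 rose under anti-PD-1, where 5.79% and 10.1% of all genes were called. This covariate therefore cannot separate a change per fat cell from a change in the score's own genes.

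Lmf1 (chr17:25579085-25662826, plus strand), which the endoplasmic reticulum needs to fold the lipase, had the smallest spread. It was at 35.2, 35.2, 26.1, 21.2 and 33.7 CPM in lean IgG2a and at 21.4, 24.6, 19.0, 19.9 and 22.3 CPM in obese IgG2a mice, which overlapped the lowest lean library. The lean anti-PD-1 libraries lay between 27.4 and 30.6 CPM, and 7 of the 8 obese ones lay below them, down to 13.4 CPM. The log2 fold changes were -0.50 (SE 0.20, edgeR adjusted p = 0.155) under IgG2a and -0.44 (SE 0.18, edgeR adjusted p = 0.123) under anti-PD-1. With the B cell score as a covariate both passed the threshold, at -0.57 (edgeR adjusted p = 0.026) and -0.59 (edgeR adjusted p = 0.0151). Without the 5 libraries of high length index the value under anti-PD-1 also passed it (-0.65, edgeR adjusted p = 0.037), as it did with length offsets (-0.65, edgeR adjusted p = 0.0221) and with the fat cell score as a covariate (-0.44, edgeR adjusted p = 0.0234). The other alternative settings missed it. Over 15 settings the values ran from -0.64 to -0.19 under IgG2a and from -1.0 to -0.18 under anti-PD-1.

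Cd36 and the transport proteins move fatty acids across membranes. Cd36 (chr5:17781690-17888801, minus strand) was at 2297, 2538, 1700, 935 and 3259 CPM in lean IgG2a and at 1156, 2805, 766, 4769 and 1371 CPM in obese IgG2a mice. The obese group held both the highest and the lowest library, and the fitted difference was 0.02 (SE 0.53). The lean anti-PD-1 libraries had 1121, 2958, 1543, 2238 and 1835 CPM. Of the 8 obese anti-PD-1 libraries, 6 lay between 3676 and 5554 CPM, above every lean one, and the 2 with a high B cell score had 566 and 1421 CPM. The log2 fold change under anti-PD-1 was 0.97 (SE 0.50, edgeR adjusted p = 0.233). With the fat cell score of each library as a covariate, Cd36 passed the threshold with obesity under both antibodies (0.93, edgeR adjusted p = 0.00505, and 0.89, edgeR adjusted p = 0.00105). Fat cell genes in that score moved with obesity themselves, as given for Angptl4. Among libraries of high B cell score alone the Cd36 values were -0.98 and -0.56.

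Slc27a1 (chr8:71568882-71587302, plus strand), which encodes a fatty acid transport protein of fat and muscle, was at 1097, 1127, 710, 506 and 998 CPM in lean IgG2a mice. In obese IgG2a mice it was at 184, 383, 173, 716 and 320 CPM. Of the 5 obese libraries, 4 lay below all lean ones, and obese IgG2a 4 lay inside the lean range (log2 fold change -1.32, SE 0.48, edgeR adjusted p = 0.114). Without that library the value was -1.71 (edgeR adjusted p = 0.0355). It also passed the threshold with the B cell score (-1.77, edgeR adjusted p = 0.00165) or the length index (-1.80, edgeR adjusted p = 0.0312) as a covariate, among libraries of high B cell score (-2.29, edgeR adjusted p = 0.00532) and in DESeq2 (-1.30, adjusted p = 0.0458). These were 4 of 15 alternative settings, over which the value ran from -2.29 to -0.52. Leaving out 1 library changed the call in 1 of 23 fits. The subset of high B cell score holds 2 obese libraries of each antibody. Under anti-PD-1 the lean libraries had 590, 818, 700, 1042 and 880 CPM, and the obese ones 122 to 1277 CPM with a median of 712 (log2 fold change -0.32, SE 0.43, edgeR adjusted p = 0.74). There it passed with the B cell score as a covariate (-0.98, edgeR adjusted p = 0.0476) and among libraries of high B cell score (-2.16, edgeR adjusted p = 0.012). These were 2 of 15 alternative settings, over which the value ran from -2.16 to -0.11.

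Slc27a4 (chr2:29802634-29817522, plus strand), a widely expressed relative, lay between 19.7 and 93.4 CPM, and its groups overlapped. Its log2 fold changes with obesity were -0.41 (SE 0.31) under IgG2a and -0.39 (SE 0.28, edgeR adjusted p = 0.435) under anti-PD-1. The value under anti-PD-1 passed the threshold with the B cell score as a covariate (-0.69, edgeR adjusted p = 0.0231), among libraries of high B cell score (-1.18, edgeR adjusted p = 0.023) and without the 5 libraries of high length index (-0.87, edgeR adjusted p = 0.032). Over 15 alternative settings this value ran from -1.18 to 0.04. The 2 highest obese anti-PD-1 libraries, 70.0 and 90.6 CPM, were again libraries 5 and 6.

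Fabp4 (chr3:10204088-10208576, minus strand), the main fatty acid binding protein of fat cells, is a neighbour of Fabp5 on chromosome 3 and did not pass the test. It was at 17000, 12350, 7447, 6382 and 16150 CPM in lean IgG2a mice and at 8221, 9653, 5912, 11020 and 2716 CPM in obese IgG2a mice. The groups overlapped, and obese IgG2a 5, the library with liver genes, was lowest (log2 fold change -0.66, SE 0.47, edgeR adjusted p = 0.508). Under anti-PD-1 the mean was 10170 ± 2473 CPM (SD, n = 5) in lean and 9352 ± 4982 CPM (SD, n = 8) in obese mice, and the log2 fold change was -0.12 (SE 0.42).

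Acsl1 (chr8:46471037-46536051, plus strand), the main acyl-CoA synthetase of fat cells, was at 2193, 1735, 1294, 689 and 2237 CPM in lean IgG2a mice. In obese IgG2a mice it was at 461, 1258, 320, 1979 and 719 CPM, with overlap (log2 fold change -0.78, SE 0.57, edgeR adjusted p = 0.522). With the B cell score as a covariate it passed the threshold (-1.36, edgeR adjusted p = 0.0196), as it did among libraries of high B cell score (-1.94, edgeR adjusted p = 0.0224). Over 15 alternative settings Acsl1 ran from -1.94 to 0.2 in this comparison. In lean anti-PD-1 mice it was at 979, 2299, 1266, 1354 and 1454 CPM. The obese anti-PD-1 libraries ranged from 320 to 4059 CPM with a median of 2681, and the 2 with a high B cell score were lowest (log2 fold change 0.66, SE 0.52, edgeR adjusted p = 0.5). Among libraries of high B cell score alone the value was -1.52 (edgeR adjusted p = 0.0963), the opposite direction.

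The annotation gives Acsl1 more than one start, and its 2 promoter windows are shown because the share of transcripts from them differed between libraries. Each window is 300 bases, from 250 before to 50 after a start in RefSeq (build GRCm38.p6, plus strand). Capitals in the first mark the GC box GGGCGG on either strand, and capitals in the second mark CCAAT on either strand. Both motifs were searched in both windows, and a pair of the GC boxes in the first share a base. The first window lies at chr8:46470787-46471086 and the second at chr8:46490716-46491015.
Acsl1 first window: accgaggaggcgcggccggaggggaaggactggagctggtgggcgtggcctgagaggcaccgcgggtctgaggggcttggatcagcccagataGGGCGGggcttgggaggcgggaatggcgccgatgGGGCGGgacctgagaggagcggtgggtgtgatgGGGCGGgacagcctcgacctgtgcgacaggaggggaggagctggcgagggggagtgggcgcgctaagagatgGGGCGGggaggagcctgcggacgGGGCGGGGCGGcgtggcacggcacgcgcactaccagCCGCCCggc
Acsl1 second window: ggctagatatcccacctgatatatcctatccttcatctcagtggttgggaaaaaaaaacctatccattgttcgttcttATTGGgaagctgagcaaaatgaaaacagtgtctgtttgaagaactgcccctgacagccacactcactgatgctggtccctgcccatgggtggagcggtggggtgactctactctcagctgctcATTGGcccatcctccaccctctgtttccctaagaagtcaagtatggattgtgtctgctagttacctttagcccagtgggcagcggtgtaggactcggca
The first window held 30 CpG pairs, 74.0% G or C, 7 GC boxes and no CCAAT. The second held 4 CpG pairs, 50.0% G or C, 2 CCAAT and no GC box. Of all 32851 windows in the table, 35.7% held a GC box and 37.4% a CCAAT, and the median window had 7 CpG pairs and 52.7% G or C.

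Transcript Acsl1-201 starts in the first window and Acsl1-203 in the second, at position 46490966. Acsl1-201 held between 94.6% and 99.5% of the gene's TPM in the 18 libraries with a length index of at most 0.5. In the 5 libraries above it, Acsl1-201 held 69.0% to 91.5%. Acsl1-203 held 4.33% and 8.70% in obese IgG2a 5 and 4, and 12.2%, 25.3% and 18.6% in obese anti-PD-1 2, 5 and 6. In the other 18 libraries it held at most 0.869%. These 5 were the libraries of high index without exception, and the pattern was noticed in the values, so no test is given.

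Cd36 and Lmf1 also showed transcripts whose shares differed between libraries. Cd36-205, a transcript of 702 bases that starts beside the leading transcript Cd36-203, held at most 0.798% of the Cd36 TPM in all 10 lean libraries. It held at most 0.334% in the 4 obese libraries of high B cell score. In the other 9 obese libraries it held between 3.06% and 26.2%, so a high share occurred in obese libraries and in no lean one. Lmf1-206, annotated as a target of nonsense-mediated decay, held 19.4% to 59.8% in lean libraries and was at 0 in obese IgG2a 5 and in obese anti-PD-1 2, 5 and 6. Its highest share, 78.0%, was in an obese IgG2a library of high B cell score, and obese anti-PD-1 libraries reached 51.4%. Transcript shares are estimates from a model of the reads and not counts of molecules. For the 4 genes with several abundant transcripts (Angptl4, Cd36, Gpihbp1 and Lmf1), the share of the leading one was tested in 16 comparisons by an exact two-sided permutation test. The leading one had the highest mean share over all libraries. For Lmf1 this was Lmf1-202, but in lean libraries Lmf1-206 had the higher mean share. These shares were 50.7% against 37.2% under IgG2a and 43.6% against 40.5% under anti-PD-1. None of the 16 tests passed after adjustment. The leading transcript of Angptl4 was Angptl4-202, which the annotation marks as a target of nonsense-mediated decay, with a mean share of 81.8% over all libraries against 12.6% for the coding Angptl4-201. The nearest was Lmf1-202, at 67.1 ± 22.2% (SD, n = 8) in obese and 40.5 ± 17.8% (SD, n = 5) in lean anti-PD-1 libraries (exact permutation p = 0.049, adjusted p = 0.597).

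**Figure D3:**
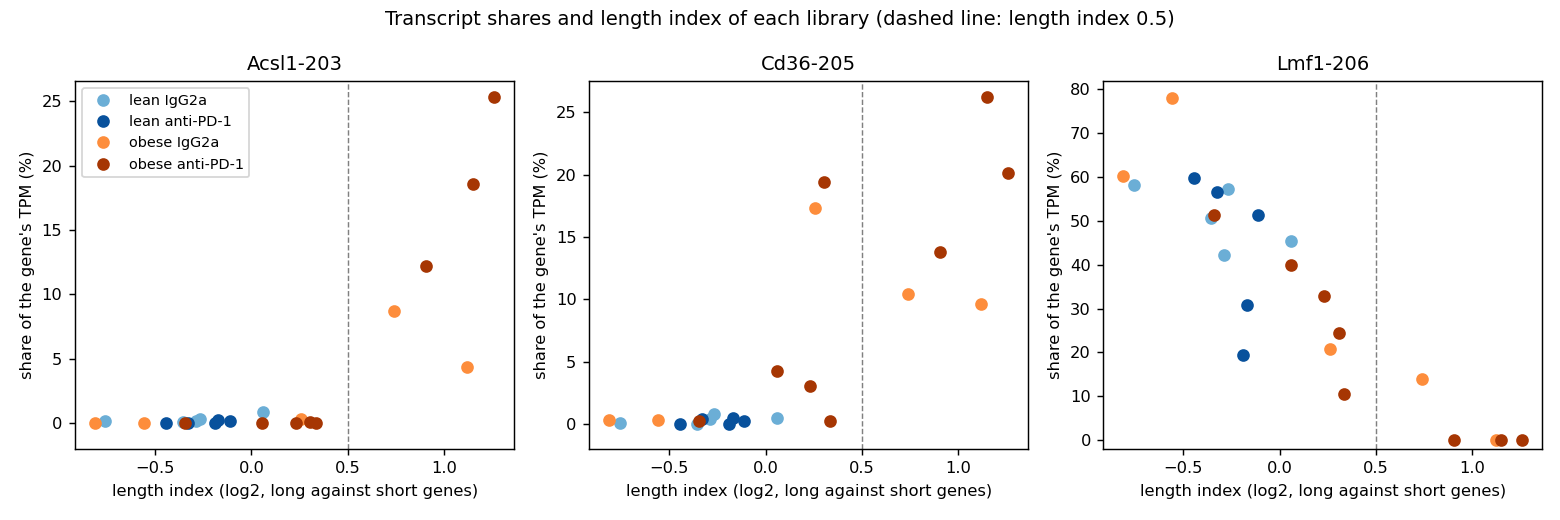
Share of each gene's TPM held by Acsl1-203, Cd36-205 and Lmf1-206 in every library (y axis, percent) against the library's length index (x axis, log2). Right of the dashed line at 0.5, Acsl1-203 holds 4.33% to 25.3% and Lmf1-206 holds at most 14.0%, while Cd36-205 is also high in some obese libraries left of it.

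Ratios of gene levels within a library do not depend on how libraries are scaled, and 6 were compared between the groups. Acsl1 was lower relative to Cd36 in obese mice. Its TPM was 66.0%, 47.6%, 53.6%, 51.3% and 47.4% of that of Cd36 in lean IgG2a, and 27.6%, 26.7%, 28.8%, 27.3% and 34.1% in obese IgG2a libraries. The groups did not overlap (difference -0.88 on the log2 scale, exact permutation p = 0.00794, the smallest that 5 against 5 allows). Under anti-PD-1 the lean libraries lay between 43.5% and 61.1%, and the obese ones between 25.0% and 48.9% with a median of 37.6% (difference -0.58, exact permutation p = 0.00466). Adjusted over the 24 tests, all 3 smallest p-values, these and that of Fabp5 to Fabp4 under IgG2a, came to 0.0635, so none passed by the exact permutation test. Under anti-PD-1, library 5 was the highest obese one for Acsl1 to Cd36, and without it the difference was -0.64 (exact permutation, adjusted p = 0.0303). Without obese anti-PD-1 3 it was -0.60 (exact permutation, adjusted p = 0.0476). These were the only 2 of 13 runs without 1 library to pass. Neither comparison passed without the 5 libraries of high length index. The differences were then -0.93 under IgG2a and -0.75 under anti-PD-1 (exact permutation, adjusted p = 0.107 for each).

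Fabp5 was also lower relative to Fabp4. Its TPM was 2.40%, 2.11%, 3.86%, 2.90% and 2.38% of that of Fabp4 in lean IgG2a, and 1.03%, 1.23%, 1.11%, 1.15% and 1.25% in obese IgG2a libraries. There was no overlap (difference -1.21, exact permutation p = 0.00794). Under anti-PD-1 the lean range was 2.07% to 3.51%, and the obese range was 0.906% to 3.81% with a median of 1.45%. The library at 3.81% was obese anti-PD-1 3, which had the highest B cell score (difference -0.84, exact permutation p = 0.0288, adjusted p = 0.152). Without that library the difference was -1.02 (exact permutation, adjusted p = 0.0476). This was the only 1 of 13 runs without 1 library to pass.

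Gpihbp1 relative to Lpl had no such separation. Its TPM was 10.5% to 16.4% of that of Lpl in lean IgG2a and 4.03% to 25.4% in obese IgG2a libraries. In obese anti-PD-1 libraries it ran from 1.24% to 35.1%, with the 2 libraries of high B cell score and library 8 at the top, and 5 and 6 at the bottom. The difference with obesity was -0.17 under IgG2a (exact permutation p = 0.802) and -0.34 under anti-PD-1 (exact permutation p = 0.706). Without the 5 libraries of high length index both turned positive, to 0.34 and 0.80. The ratio of Slc27a4 to Slc27a1 was higher in obese IgG2a libraries (4.13% to 13.2%) than in lean ones (3.59% to 5.39%), with overlap (difference 1.06, exact permutation p = 0.0317, adjusted p = 0.152). The overlap came from obese IgG2a 4, and without it the difference was 1.33.

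**Figure D4:**
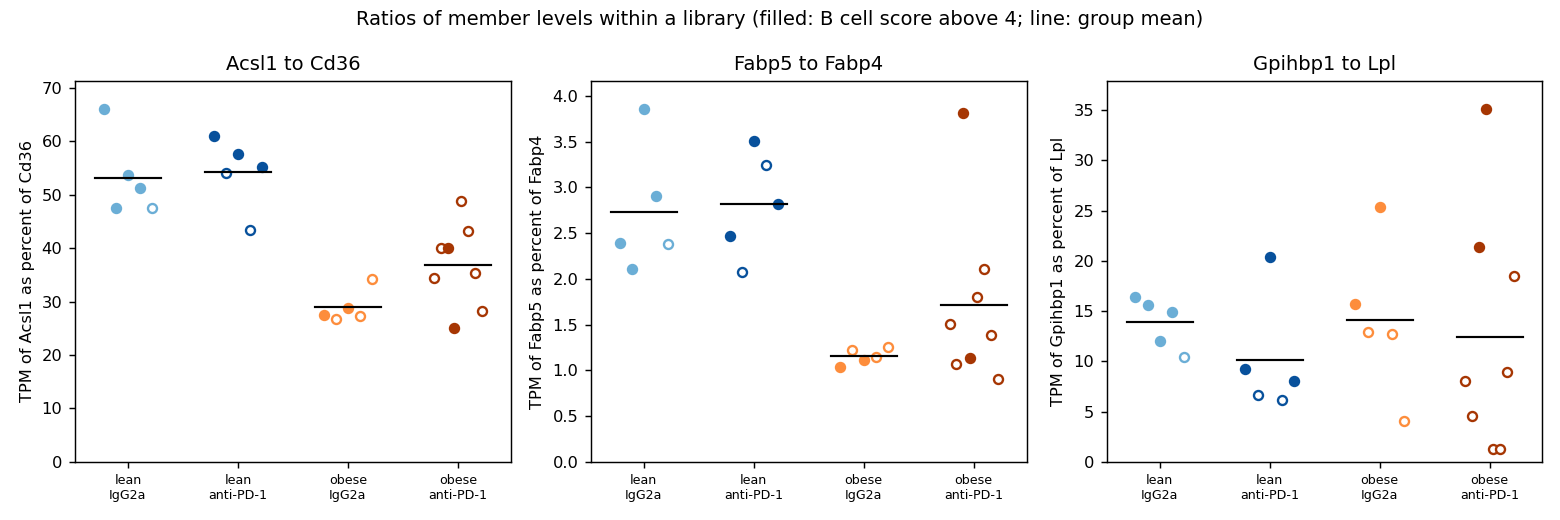
TPM of one gene as a percentage of another within each library, by group, with points filled where the B cell score is above 4 and lines at group means. Acsl1 to Cd36 and Fabp5 to Fabp4 do not overlap between lean and obese IgG2a libraries, while Gpihbp1 to Lpl spans 1.24% to 35.1% in obese anti-PD-1 libraries.

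The second question was whether blocking PD-1 moved these genes. None of the 10 passed the test for anti-PD-1 against IgG2a in lean mice or in obese mice. In lean mice 0 genes of any kind were called by edgeR (0% of those tested), with 472 (2.37%) at an unadjusted p under 0.05. There limma called 0, on counts and on log2(TPM + 1), and DESeq2 called 22. The 10 log2 fold changes lay between -0.30 and 0.36 there, and none had an unadjusted p under 0.05. In obese mice 107 genes were called (0.538%), of which 106 were lower (0.533%). The comparison uses the same obese IgG2a libraries as the first one.

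In obese mice all 10 log2 fold changes were positive, with a median of 0.66 against -0.003 for all genes. Lpl was 3.25-fold higher (log2 fold change 1.70, 95% interval 0.29 to 3.11, edgeR adjusted p = 0.276). Acsl1 was 2.45-fold higher (1.29, 95% interval 0.18 to 2.41, edgeR adjusted p = 0.292). These 2 had an unadjusted p under 0.05, a level that 13.6% of all genes reached. Slc27a1 was at 0.87 (SE 0.44), Cd36 at 0.81 (SE 0.49), Angptl4 at 0.71 (SE 0.40) and Lmf1 at 0.00 (SE 0.18). Beside them, 10 of 12 fat cell genes were higher with a median of 0.72, none of them called, and 11 of 12 endothelial genes were higher with a median of 0.59. The summed fat cell genes ran from 6220 to 20200 CPM in obese IgG2a and from 3560 to 23300 CPM in obese anti-PD-1 libraries. Their part in the result was not tested. Among libraries of high B cell score alone, 5 of the 10 were lower with anti-PD-1, Lpl among them at -0.39.

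The difference of the obesity effects between the antibodies was positive for all 10 genes and passed for none. It was largest for Acsl1 (1.44, 95% interval -0.17 to 3.05, edgeR adjusted p = 0.72) and Lpl (1.34, 95% interval -0.66 to 3.33, edgeR adjusted p = 0.793). edgeR called 0 genes of any kind for this difference (0%), with 1449 (7.29%) at an unadjusted p under 0.05. DESeq2 called 50, limma on counts 1 and limma on log2(TPM + 1) 0.

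The 10 genes varied together between libraries of the same group. After group means were removed, the median Pearson r of log2 CPM over the 45 pairs was 0.71. The 23 libraries differed in tissue makeup and length index, also within a group, and the part of these in r was not tested. Cd36, Lpl, Slc27a1 and Acsl1 formed the closest set, with r between 0.89 and 0.96. Gpihbp1 and Fabp4, one from endothelium and the other mainly from fat cells, reached 0.96. The lowest pair was Fabp5 with Slc27a4, at 0.06. The index is built from transcript length. Its r was positive for the members with the longest transcripts (Slc27a4 0.58, Lpl 0.55, Acsl1 0.54). It was negative for those with the shortest (Fabp4 -0.36, Fabp5 -0.27, Gpihbp1 -0.21). The others were positive: Slc27a1 0.47, Cd36 0.41, Lmf1 0.39 and Angptl4 0.2. Lmf1, at a mean effective length of 1329 bases, is shorter than Angptl4, at 1686. Without the 5 libraries of high index, Lpl with Gpihbp1 moved from 0.45 to 0.87, and Fabp5 with Slc27a4 from 0.06 to 0.58.

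**Figure D5:**
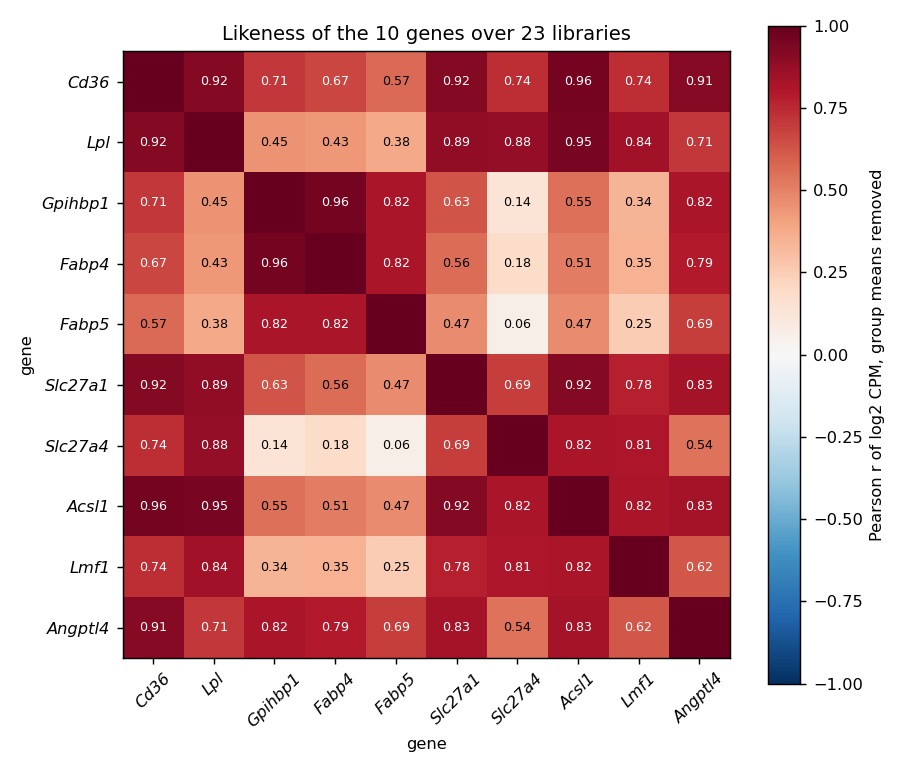
Pearson r between each pair of the 10 genes over 23 libraries, from log2 CPM with group means removed (colour scale from -1 to 1). The block of Cd36, Lpl, Slc27a1 and Acsl1 lies at 0.89 to 0.96, and Slc27a4 with Fabp5, Gpihbp1 and Fabp4 at 0.06 to 0.18.

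Among 11814 genes of at least 4 CPM, the 3 most like each member were listed by the same measure. For Cd36 they were Ghr, the growth hormone receptor (0.99), Abcd2 (0.99) and Cavin2 (0.99). For Lpl they were Pon3 (0.99), Carhsp1 (0.98) and Tmem135 (0.98). For Acsl1 they were Acvr1c, an activin receptor of fat cells (0.99), Pnpla8 (0.99) and Mfn2 (0.99). Gpihbp1 was most like Car4 (0.96), a carbonic anhydrase found on capillaries, then Fabp4 (0.96) and Amy1 (0.95). Fabp4 was most like Sdhc, Fxyd1 and Prdx5 (each 0.97). Angptl4 was most like Smad6 (0.97), Mcam (0.95) and Hoxc6 (0.95). Slc27a1 was most like Ctdspl (0.95), Slc1a5 (0.94) and Svep1 (0.94), and Slc27a4 was most like Lman2 (0.96), Arl8b (0.96) and Tbl2 (0.95). Fabp5 had weaker partners, Zfp931 (0.89), Uqcrc2 (0.88) and Stk16 (0.87), as did Lmf1, with Bag4 (0.89), Pygb (0.88) and Clpb (0.88).

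Other genes of the pathway were taken from a list of 49, of which 46 passed the filter. This list, too, was chosen with earlier results of these data known. Under IgG2a, 5 of the 46 rose and 2 fell with obesity, where 5.79% of all genes were called, and the median log2 fold change was 0.26 against 0.12 for all genes. Under anti-PD-1, 1 rose and 5 fell, where 10.1% of all genes were called, with a median of 0.18 against 0.08. In obese mice 4 fell with anti-PD-1, where 0.538% of all genes were called, and in lean mice none passed. Fabp3 and Angptl8 fell with obesity under both antibodies.

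Fabp3, the fatty acid binding protein of heart, muscle and brown fat, was at 97.6, 2.19, 10.8, 29.0 and 3.63 CPM in lean IgG2a and at 0.150, 0.307, 2.52, 0.112 and 0.293 CPM in obese IgG2a mice. The log2 fold changes were -5.39 (SE 1.25, edgeR adjusted p = 0.0128) under IgG2a and -5.35 (SE 1.02, edgeR adjusted p = 0.0019) under anti-PD-1. The list of 7 genes of heat-producing fat cells moved with it: 6 fell under each antibody, where 3.12% and 4.85% of all genes were called lower. Its summed level was 201 to 1700 CPM in lean and 5.58 to 34.6 CPM in obese libraries. Skeletal muscle genes were high in part of the lean libraries (up to 3320 CPM in sum), lean IgG2a 1 among them. They summed to 1050 and 3220 CPM in lean anti-PD-1 1 and 2, which had the highest Fabp3 of their group, 34.9 and 28.0 CPM. Lean IgG2a 4, with Fabp3 at 29.0 CPM, had muscle genes at only 10.1 CPM. Obese IgG2a 3, with muscle genes at 402 CPM, had the highest Fabp3 of its group, 2.52 CPM. Every other obese library had muscle genes at 83.2 CPM or less. The part of heat-producing fat cells or of muscle in the result was not tested. The call under IgG2a was lost without lean IgG2a 1 (-4.02, edgeR adjusted p = 0.0602) and in 6 other settings, among them limma voom (-5.00, adjusted p = 0.149) and the libraries of high or low B cell score alone (-4.71, edgeR adjusted p = 0.16, and -3.96, edgeR adjusted p = 0.18). The call under anti-PD-1 was lost among libraries of high B cell score (-5.98, edgeR adjusted p = 0.193).

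Angptl8, a secreted regulator of the lipase, was at 25.4, 48.5, 34.2, 13.8 and 35.9 CPM in lean IgG2a mice. It was at 1.59, 2.95, 2.28, 3.57 and 1.21 CPM in obese IgG2a mice, with no overlap. The log2 fold changes were -3.77 (SE 0.67, edgeR adjusted p = 0.00175) under IgG2a and -2.62 (SE 0.54, edgeR adjusted p = 0.0034) under anti-PD-1. Leaving out any one library moved these to between -3.94 and -3.54 and between -3.02 and -2.47. Among libraries of low B cell score alone the value under IgG2a was -3.85 and missed the threshold (edgeR adjusted p = 0.0909). Acsl3, another acyl-CoA synthetase, fell under anti-PD-1 (-1.17, SE 0.28, edgeR adjusted p = 0.0106). It was at 24.2 to 51.6 CPM in lean and 10.8 to 22.3 CPM in obese libraries, with no overlap, as for 3.11% of all genes in this direction. It missed the threshold on log2(TPM + 1) in limma (-0.60, adjusted p = 0.202) and among libraries of high B cell score (-1.16, edgeR adjusted p = 0.0775). Under IgG2a Acsl3 was at -1.07 (SE 0.32) and narrowly missed the threshold (edgeR adjusted p = 0.0502). Mfsd2a, a lipid transporter, also fell under anti-PD-1 (-2.09, SE 0.57, edgeR adjusted p = 0.0226), from 4.87 ± 2.14 CPM (SD, n = 5) to 1.14 ± 0.98 CPM (SD, n = 8). It missed the threshold without lean anti-PD-1 5 (-1.82, edgeR adjusted p = 0.0735), on log2(TPM + 1) in limma (-0.84, adjusted p = 0.151) and with length offsets (-1.53, edgeR adjusted p = 0.205). It also missed it among libraries of high (-2.31, edgeR adjusted p = 0.0686) or low (-1.74, edgeR adjusted p = 0.235) B cell score alone. Meox2, a transcription factor of endothelium, rose under anti-PD-1 (0.90, SE 0.27, edgeR adjusted p = 0.0359). Leaving out lean anti-PD-1 1, 2 or 4 or obese anti-PD-1 2 or 7 put it at 0.81 to 0.88, with edgeR adjusted p from 0.0533 to 0.0922. Among libraries of high B cell score alone it was at 0.13 (edgeR adjusted p = 0.842), with the B cell score as a covariate at 0.74 (edgeR adjusted p = 0.0675) and with the length index at 0.76 (edgeR adjusted p = 0.147).

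Of the genes of the list that rose under IgG2a, Slc27a5, Apoa5, Got2 and Acsl6 missed the threshold without obese IgG2a 5, and also without lean IgG2a 1, 2 or 5. Slc27a5 and Apoa5, both known from liver, were at 101 and 88.1 CPM in obese IgG2a 5, the library with liver genes, and at most 0.525 and 1.31 CPM in the other obese IgG2a libraries. Got2, a mitochondrial enzyme also named as a fatty acid binding protein of the plasma membrane, went from a log2 fold change of 1.00 to 0.68 without that library (edgeR adjusted p = 0.128). Acsl6 was at 36.7, 6.33 and 58.3 CPM in obese IgG2a 2, 4 and 5 and at most 0.113 CPM in the other 2, and without library 5 it was at 5.91 (edgeR adjusted p = 0.0739). The 4 genes that fell with anti-PD-1 in obese mice were Slc27a5, Apoa5, Apoc3 and Lipg, an endothelial lipase, and all 4 missed the threshold without that library. They also missed it without any one of lean IgG2a 1 to 4, lean anti-PD-1 3, obese IgG2a 2 or obese anti-PD-1 1, 2, 5, 6, 7 or 8. Apoc3 was at 113 CPM in obese IgG2a 5, and without that library it was at -1.81 (edgeR adjusted p = 0.514). Lipg went from -2.29 (edgeR adjusted p = 0.0498) to -2.09 (edgeR adjusted p = 0.514). Apoc3 also fell with obesity under anti-PD-1 (-4.22, SE 1.12, edgeR adjusted p = 0.0194), from 2.40 to 8.69 CPM in lean to at most 0.627 CPM in obese libraries, and missed the threshold among libraries of low B cell score (-3.99, edgeR adjusted p = 0.152). Under IgG2a its log2 fold change was 1.85 (SE 1.21, edgeR adjusted p = 0.46), with obese IgG2a 5 included. The other obese IgG2a libraries were at 0.543 to 1.94 CPM, below all lean IgG2a ones (3.71 to 10.85 CPM).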

How the data were processed

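RNA of tumor-adjacent mammary fat pad was sequenced from non-directional, oligo-dT-selected libraries, per the labels' protocols. The authors deposited, for each library, an estimated count and a TPM value per transcript. No source used here names the quantifier. The submitters' processing notes name GRCm38, edgeR and limma without versions. Of 115088 transcripts, 114200 matched the GENCODE M21 annotation and were summed to 47311 genes. The other 888 held at most 0.208% of a library's counts. Gene sums of estimated counts were rounded.

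edgeR 4.0.16 in R 4.3.3 fitted 1 mean per group over all 23 libraries by its quasi-likelihood test, with TMM scaling. Genes passed the filter on low counts by edgeR's rule at a minimum count of 10, and p-values were adjusted by Benjamini-Hochberg over 19882 genes. The common biological coefficient of variation was 0.805. Ratios and transcript shares were tested by exact two-sided permutation tests of library means of log2 TPM ratios or percent shares, adjusted over 24 and 16 tests. Likeness was Pearson's r of log2 CPM after subtracting group means, with no p. Named genes were the 10, the called genes of the pathway list and the 3 most similar genes of each. The values of 1 called gene of the pathway list are not reported here. The members and lists were chosen with earlier results of these data known. Alternatives were DESeq2 1.42.0, limma 3.58.1, other scaling, filters, covariates and subsets of libraries. The fits were tested on simulated data. Labels give no batch. Each library held 49438121 to 77369057 estimated counts, and each group mean rests on 5 or 8 libraries.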

Additional observations from a re-analysis of the deposited data

Results flagged for a closer look

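In 1 of 40 sets tested (10 genes in 4 groups), a library stood apart from the rest of its group by Dixon's test. Fabp4, the fatty acid binding protein of fat cells, was at 6053 CPM in lean anti-PD-1 1, and the nearest library of that group was at 10090 CPM. The gap was 0.739 of the range of the group. Chance marks about 1 in 20 such sets. The same library had the highest B cell score of its group, 7.70, and the lowest fat cell score, 9.09. Their part in the value was not tested.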

How the results depend on the processing

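Values here are log2 fold changes unless they are counts of called genes. The fall of Fabp5 with obesity kept its direction under every setting. No paired analysis was possible because the labels give no replicate numbers. Where a value changed direction or a count of calls moved, the cause was not tested, except that subsets hold fewer libraries. What depth limits was not tested.

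In DESeq2, 2018 and 3117 genes were called with obesity under IgG2a and anti-PD-1, 22 and 365 with anti-PD-1 in lean and obese mice, and 50 for the interaction. Lmf1 with anti-PD-1 in obese mice and Slc27a4 in the interaction both went to -0.02, as with RLE scaling. In limma voom, calls with anti-PD-1 in obese mice came to 0 and for the interaction to 1, Cd36 with obesity under IgG2a was at -0.17, Lmf1 with anti-PD-1 in obese mice at -0.05, and Slc27a4 and Lmf1 in the interaction at -0.08 and -0.03. On log2(TPM + 1), calls were 3576 for obesity under anti-PD-1 and 0 for anti-PD-1 in obese mice, with Angptl4 at 0.12 for obesity under IgG2a, Fabp4 and Slc27a4 at 0.16 and 0.04 under anti-PD-1, and Lmf1 at 0.02 for anti-PD-1 in lean mice. With length offsets, calls for anti-PD-1 in obese mice were 54, and Lmf1 was at -0.12 there and -0.10 in the interaction. Without the filter those calls were 70, and with at least 1 CPM in 5 libraries 49. With only the groups compared, calls were 583 for obesity under IgG2a, 1 for anti-PD-1 in lean and 0 in obese mice, with Cd36 at -0.03 and Lmf1 at -0.01.

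With the B cell score as a covariate, calls were 2966 for obesity under IgG2a and 605 for anti-PD-1 in obese mice. Cd36 was at -0.46 under IgG2a, Lpl and Acsl1 at -0.09 and -0.23 under anti-PD-1, Angptl4 at -0.14 for anti-PD-1 in lean mice, Slc27a4 and Lmf1 at -0.04 and -0.12 in obese mice, and -0.10 and -0.01 in the interaction. With the fat cell score, calls were 1971 and 3987 for obesity and 0 for anti-PD-1 in obese mice. For obesity under IgG2a, Lpl was at 1.05, Gpihbp1 0.23, Fabp4 0.05, Slc27a4 0.03, Acsl1 0.20 and Angptl4 0.62. For anti-PD-1 in lean mice, Cd36 was at 0.17, Fabp4 0.02, Fabp5 0.08, Slc27a1 0.12, Acsl1 0.19 and Lmf1 0.04. In obese mice, Fabp4 was at -0.14, Slc27a4 -0.10 and Lmf1 -0.21. In the interaction, Cd36 was at -0.04, Lpl -0.21, Fabp4 -0.17, Slc27a4 -0.43, Lmf1 -0.25 and Angptl4 -0.11.

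Among libraries with a B cell score above 4, calls were 1896, 574 and 0 for obesity under IgG2a, obesity under anti-PD-1 and anti-PD-1 in obese mice. Under IgG2a, Cd36 was at -0.98 and Acsl6 at -1.02. Under anti-PD-1, Cd36 was at -0.56, Lpl -1.76, Gpihbp1 -0.30, Acsl1 -1.52 and Angptl4 -0.53. For anti-PD-1, Angptl4 was at -0.09 in lean mice, and in obese mice Lpl was at -0.39, Fabp4 -0.33, Slc27a1 -0.14, Slc27a4 -0.53 and Lmf1 -0.49. In the interaction, Lpl was at -0.55, Fabp4 -0.03, Slc27a4 -0.56 and Lmf1 -0.43. Among the other libraries, calls were 255 for obesity under IgG2a, 2 and 767 for anti-PD-1 in lean and obese mice and 2 for the interaction, with Cd36 at -0.18 under IgG2a and Angptl4 at -0.15 in lean mice. Obese IgG2a 2 and 5 had the highest sums of tumor-like genes. Without these libraries, calls were 293 for obesity under IgG2a and 0 for anti-PD-1 in obese mice. The ratios of Gpihbp1 and Lmf1 to Lpl under IgG2a were then at 0.33 and 0.08, and the share of Angptl4-202 at 1.83 points.

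These were added after the data were seen. With the length index as a covariate, calls were 1181 for obesity under anti-PD-1 and 66 for anti-PD-1 in obese mice. Cd36 was at -0.47 under IgG2a, Lpl, Fabp4 and Acsl1 at -0.14, 0.22 and -0.22 under anti-PD-1, and Slc27a4 and Lmf1 at -0.01 and -0.09 for anti-PD-1 in obese mice and at -0.17 and -0.01 in the interaction. Without the 5 libraries of high index, calls were 453, 1120 and 0 for obesity under IgG2a, under anti-PD-1 and anti-PD-1 in obese mice. Cd36 was at -0.41 and Fabp4 at 0.13 with obesity, Slc27a4 and Lmf1 at -0.09 and -0.27 for anti-PD-1 in obese mice, and at -0.33 and -0.22 in the interaction. The ratios to Lpl were 0.76 for Angptl4 and 0.80 for Gpihbp1 under anti-PD-1, and 0.34 for Gpihbp1 and 0.43 for Lmf1 under IgG2a. As a share of estimated counts, Cd36-203 differed by 0.47 and 4.98 points with obesity and by 1.40 with anti-PD-1 in obese mice.

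Leaving out 1 library gave 495 to 1662 calls for obesity under IgG2a, lowest without lean IgG2a 1, 2 or 5 (495, 545, 559) or obese IgG2a 5 (549). It gave 1108 to 2432 under anti-PD-1, lowest without lean anti-PD-1 4, then 0 to 643 for anti-PD-1 in obese mice and 0 to 1 for the interaction. Values that crossed 0 with obesity under IgG2a were Cd36 (-0.46 to 0.23), Lpl (-0.61 to 0.03) and Angptl4 (-0.53 to 0.01), and under anti-PD-1 Fabp4 (-0.27 to 0.03). With anti-PD-1 in lean mice they were Cd36 (-0.35 to 0.03), Fabp5 (-0.20 to 0.11), Lmf1 (-0.16 to 0.02) and Angptl4 (-0.20 to 0.18), and in obese mice Lmf1 (-0.09 to 0.08). In the interaction they were Slc27a4 (-0.18 to 0.22) and Lmf1 (-0.03 to 0.13). Ratios that crossed 0 under IgG2a were Angptl4 (-0.08 to 0.43), Gpihbp1 (-0.44 to 0.23) and Lmf1 (-0.56 to 0.24) to Lpl. Under anti-PD-1 they were Angptl4 (-0.33 to 0.18) and Gpihbp1 (-0.66 to 0.02) to Lpl and Slc27a4 to Slc27a1 (-0.01 to 0.29), and with anti-PD-1 in lean mice Fabp5 to Fabp4 (-0.03 to 0.19) and Acsl1 to Cd36 (-0.01 to 0.11). Shares that crossed 0, in points, were Angptl4-202 (-2.06 to 1.64) and Gpihbp1-201 (-2.35 to 0.32) under IgG2a and Cd36-203 (-1.79 to 1.19) under anti-PD-1. With anti-PD-1 they were Angptl4-202 (-0.36 to 2.82) and Lmf1-202 (-1.97 to 8.32) in lean mice, and Angptl4-202 (-3.37 to 0.32) and Cd36-203 (-1.62 to 1.11) in obese mice.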
